A study of Mus musculus with 26 samples.

Results

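The Slc25 family of mitochondrial carriers was followed in brown adipose tissue of mice with floxed alleles of Klf15, a transcription factor gene, with and without a Cre directed to brown adipocytes. Its members were the genes whose symbol is Slc25a followed by a number and that reached 1 FPKM in at least 3 of the 26 libraries. This rule took 37 of the 47 such symbols in the table of 48432 genes, of which 12708 genes reached the same minimum. FPKM counts sequenced fragments relative to the length of the transcript and to all mapped fragments, as scaled by the authors.

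BKO mice carried 1 copy of a Cre whose Ucp1 promoter drives it mainly in brown adipocytes, with both Klf15 alleles floxed (Ucp1-Cre/+;K15F/F). FF mice carried the floxed alleles (KLF15 flox/flox), with no Cre in the label, so both genotypes shared the floxed alleles and the Cre itself was carried by BKO mice only. All mice were 2 months old. The conditions were fasting at room temperature (3 libraries per genotype), a cold challenge (4 per genotype), cold with fasting (3 per genotype) and feeding at room temperature (3 per genotype). The sources used here give neither the temperature, the length of the cold or the fast, the sex, nor whether a library held 1 mouse.

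Mitochondrial carriers are small proteins of the inner mitochondrial membrane that exchange nucleotides, phosphate, organic acids, amino acids, acylcarnitines and cofactors between the cytosol and the matrix. The heat-producing uncoupling protein Ucp1 and its relatives Ucp2 and Ucp3 belong to the same protein family but carry other symbols. In brown fat these carriers stand between the fuels that reach the matrix, the ATP and citrate that leave it, and the synthesis of lipid in the cytosol.

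The promoters of Slc25a1, the carrier with the largest fall in fasting, and of Slc25a34, the carrier with the largest rise in cold, are shown with those of Slc25a20 and Slc25a48, a pair that rose in cold. They are RefSeq sequences on GRCm38.p6, 5′ to 3′ on the strand of the gene, from 250 bases before to 50 bases after the annotated start. Capitals mark the matches found, which were CACGTG (E-box) and CCAAT or its reverse complement ATTGG.
Slc25a1 (chr16:17928170-17928469, minus strand): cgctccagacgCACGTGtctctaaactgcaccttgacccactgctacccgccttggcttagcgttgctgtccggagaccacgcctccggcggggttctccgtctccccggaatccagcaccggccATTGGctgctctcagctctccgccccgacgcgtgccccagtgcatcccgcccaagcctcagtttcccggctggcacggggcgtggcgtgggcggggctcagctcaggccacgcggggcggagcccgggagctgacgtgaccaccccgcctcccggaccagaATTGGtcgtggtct
Slc25a34 (chr4:141623785-141624084, minus strand): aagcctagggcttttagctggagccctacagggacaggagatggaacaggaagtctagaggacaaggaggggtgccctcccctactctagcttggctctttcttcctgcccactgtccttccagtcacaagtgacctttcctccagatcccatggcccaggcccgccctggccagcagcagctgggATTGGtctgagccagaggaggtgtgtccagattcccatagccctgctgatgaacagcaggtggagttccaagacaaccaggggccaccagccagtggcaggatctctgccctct
Slc25a20 (chr9:108661886-108662185, plus strand): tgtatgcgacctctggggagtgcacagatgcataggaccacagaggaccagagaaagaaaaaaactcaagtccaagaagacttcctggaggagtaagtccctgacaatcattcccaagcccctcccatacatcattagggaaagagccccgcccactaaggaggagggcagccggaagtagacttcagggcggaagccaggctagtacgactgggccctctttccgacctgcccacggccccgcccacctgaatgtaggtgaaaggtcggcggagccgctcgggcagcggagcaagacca
Slc25a48 (chr13:56438105-56438404, plus strand): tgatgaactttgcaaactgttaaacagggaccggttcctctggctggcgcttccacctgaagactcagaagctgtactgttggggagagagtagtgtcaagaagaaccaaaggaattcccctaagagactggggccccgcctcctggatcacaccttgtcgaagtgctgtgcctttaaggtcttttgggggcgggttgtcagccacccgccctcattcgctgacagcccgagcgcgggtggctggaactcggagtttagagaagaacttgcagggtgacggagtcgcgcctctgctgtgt
Slc25a1 held 1 E-box and 2 CCAAT matches, and Slc25a34 held 1 CCAAT match. No searched motif was found in the windows of Slc25a20 and Slc25a48.

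A promoter was listed for 28 of the 37 members, with 36 starts among them. On both strands, CCAAT was in 52.8% of these 36 windows, against 37.4% of all 32851 windows of the same length. CACGTG was in 16.7% of the member windows and 7.15% of all windows, in Slc25a1, Slc25a14, Slc25a15, Slc25a33 and Slc25a36. The GC box GGGGCGGGG was in 13.9% of the member windows and 11.4% of all, the cAMP response element TGACGTCA in 5.56% (Slc25a25 and Slc25a36) and 1.79%, and the CACCC box CCACACCC in 2.78% (Slc25a24) and 3.56%. No member window held TCAAGGTCA (estrogen-related receptor element, 0.423% of all windows), the sterol regulatory element (0.234%), the NRF1 site (0.971%) or the peroxisome proliferator response element (0.0396%). The letters of CACGTG and CCAAT cannot overlap, and a match describes these letters only.

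Slc25a1 had the highest median level, 655 times that of the lowest member, Slc25a27. Other members also had high medians. Beside the citrate carrier Slc25a1 (630 FPKM, range 114 to 844) these were the ADP/ATP carrier Slc25a5 (505 FPKM, 320 to 592), the acylcarnitine carrier Slc25a20 (413 FPKM, 251 to 466), the mitochondrial glutathione carrier Slc25a39 (334 FPKM, 173 to 406) and the phosphate carrier Slc25a3 (276 FPKM). The ADP/ATP carrier Slc25a4 (228 FPKM) and the NAD carrier Slc25a51 (214 FPKM) were also above 200 FPKM, and their ranges overlapped. In all, 11 members had a median above 100 FPKM, 14 lay between 10 and 100 FPKM and 12 lay below 10 FPKM.

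The main ADP/ATP carrier by level was Slc25a5 and not Slc25a4, with no overlap between their libraries. Slc25a5 has near-identical copies in the genome, and Slc25a4 is a close relative, so reads of these genes may have been divided between copies in the authors' processing. The aspartate-glutamate carriers of the malate-aspartate shuttle were below the minimum, Slc25a12 at 0.476 to 0.856 FPKM and Slc25a13 at 0.0265 to 0.174 FPKM. Their partner in that shuttle, the oxoglutarate carrier Slc25a11, had a median of 110 FPKM. The other 8 symbols below the minimum were Slc25a2, Slc25a18, Slc25a21, Slc25a31, Slc25a41, Slc25a43, Slc25a53 and Slc25a54, the last listed at 0 in every library.

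**Figure D1:**
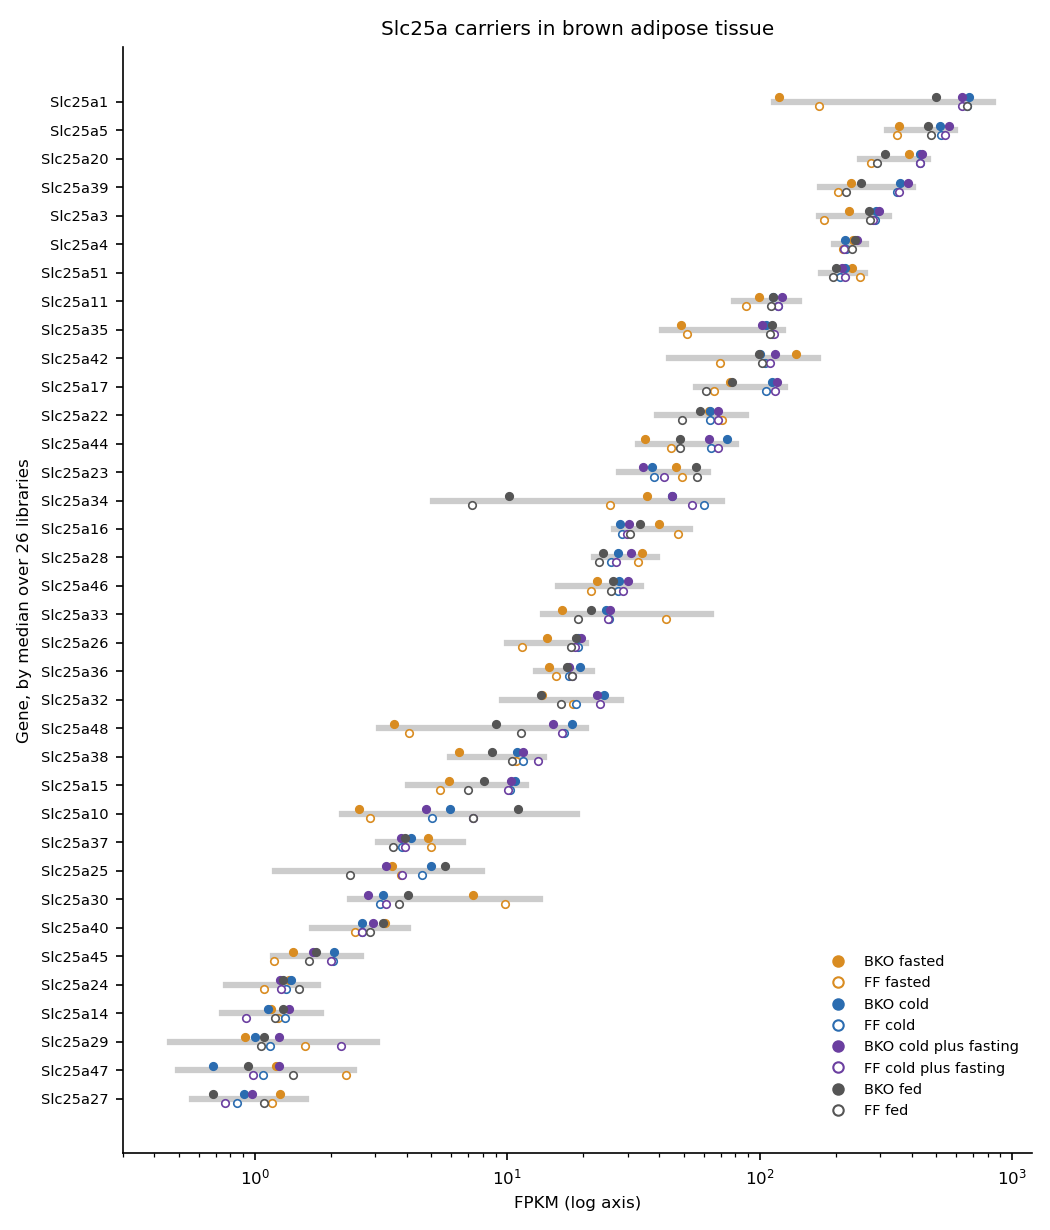
Level of 36 carriers, in FPKM on a log axis, ordered by the median over 26 libraries; grey bars span all libraries, and points are group means of BKO (filled) and FF (open) mice. Slc25a1 leads at a median of 630 FPKM with its fasted means far to the left, and Slc25a34 has its fed means far to the left.

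The FPKM of the 37 members summed to 2505 to 2822 in fasted BKO mice, 2339 to 2625 in fasted FF mice, 3811 to 3918 in cold BKO mice, 3765 to 3900 in cold FF mice, 3835 to 4129 in BKO mice in cold with fasting and 3622 to 4050 in FF mice in cold with fasting. In fed mice the sums were 3189 to 3355 in BKO and 3152 to 3593 in FF. The fasted sums lay below every fed sum, and the cold sums lay above every fed sum. As a share of all FPKM of a library, fasted mice were also below fed mice (0.572% to 0.656% against 0.729% to 0.840%). The share was 0.828% to 0.890% in cold and 0.804% to 0.906% in cold with fasting. These shares overlapped the fed shares in FF mice and not in BKO mice. The totals lack genes listed at 0 as failed estimates, such as Ucp1 in every cold library and Gpd1 in 14 libraries. A total that lacks such a gene makes the share too high, by an amount that was not estimated. In bulk tissue, fewer cells of a type and less RNA per cell cannot be told apart.

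Several facts of the whole series bear on these values. Klf15, the targeted gene, was at 2.12 to 8.92 FPKM in BKO libraries and 9.03 to 30.6 FPKM in FF libraries. The 6 brown adipocyte markers other than Ucp1 summed to 5269 to 10333 FPKM over all libraries. In BKO mice the sums were 6705 to 7794 FPKM when fasted, 7072 to 8109 in cold and 7107 to 10333 in cold with fasting. They overlapped the fed BKO sums of 6245 to 7662 FPKM. In FF mice they were 5269 to 6729.5 FPKM when fasted, 6977 to 7921.5 in cold and 6825 to 7212 in cold with fasting. Fed FF sums were 6204 to 6710.5 FPKM, which overlapped the fasted sums and lay below both cold ranges. Their part in the carrier differences was not tested. Ucp1 was listed at exactly 0 in all 8 cold libraries, beside 7920 FPKM on average in BKO mice in cold with fasting and 7750 FPKM in FF mice, and was not used in the cold.

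Markers of other cell types moved with some of the conditions, and their part in the carrier differences was not tested. Skeletal muscle markers (0 of 9 called in any response) summed to 1.08 to 191 FPKM, with large spread within groups. White adipocyte markers summed to 19.2 to 29.7 FPKM in fasted BKO and 24.1 to 37.3 FPKM in fasted FF mice, against 43.7 to 80.0 FPKM in fed BKO and 46.1 to 51.5 FPKM in fed FF mice. In fasting 3 of these 4 fell and 0 rose in BKO mice, and 2 fell and 1 rose in FF mice, and fasted and fed sums did not overlap within a genotype. In cold, endothelial markers summed to 157 to 179.6 FPKM in BKO and 147 to 177 FPKM in FF mice, against 120.2 to 135 FPKM in fed BKO and 117 to 122 FPKM in fed FF mice. Of these 4, 2 rose in BKO and 3 in FF mice, with no overlap of the sums. Of 6 macrophage markers, 1 fell in cold in BKO and 2 in FF mice, and 2 fell in fasted BKO mice. Of the lymphocyte markers only Ighm was tested, and it fell in fasting in both genotypes and rose in cold in FF mice.

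The 5 erythroid markers had summed levels of 415 to 701 FPKM in cold BKO mice, 342 to 601 FPKM in cold FF mice, 174 to 471 FPKM in fed BKO mice and 120 to 188 FPKM in fed FF mice, so that cold and fed libraries overlapped in BKO and not in FF mice. In cold 4 of the 5 rose in BKO and all 5 in FF mice.

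The labels number the libraries, and 8 FF libraries carry the numbers 1 to 8, namely the 3 fasted ones, fed replicates 1 and 2, and cold replicates 2 to 4. All other libraries, including every BKO library, carry the numbers 15 to 32. What the number stands for is not stated. In fasted mice the number range and the genotype cannot be told apart. Within each range the numbers also run in consecutive blocks by condition, so number block and condition cannot be told apart there. Fits within a range, or with the range as a term, do not separate them. Differences below were tested with limma on log2(FPKM + 1) over all 26 libraries, and a member was called at a Benjamini-Hochberg adjusted p under 0.05, adjusted over all genes tested.

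Fasting at room temperature moved the carriers in both directions. In BKO mice 5 members rose and 11 fell relative to fed mice, where 27.5% of all genes tested were called (12.9% higher, 14.6% lower). In FF mice 8 rose and 11 fell, where 37.5% were called (18.1% higher, 19.4% lower). The median log2 difference of the members was -0.15 in BKO and -0.12 in FF mice, beside -0.01 and -0.00 over all genes. Fasting and feeding were compared within each genotype on separate libraries, and 9 members fell and 3 rose in both genotypes. The share of all genes called in both genotypes is not given, so this count describes the members only.

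The citrate carrier Slc25a1 (chr16:17925223-17928219, minus strand, protein coding, ENSMUSG00000003528) fell the most. It exports citrate, from which cytosolic acetyl-CoA for fatty acid synthesis is made. It was at 124, 121 and 114 FPKM in fasted BKO mice, against 645, 467 and 390 FPKM in fed BKO mice. It was at 200.2, 143 and 171 FPKM in fasted FF mice, against 682, 475 and 830 FPKM in fed FF mice. Every fasted library was below every fed library, also across genotypes. The log2 difference was -2.02 (SE 0.20, limma adjusted p = 1.21e-07) in BKO and -1.92 (SE 0.20, adjusted p = 1.76e-07) in FF mice, and -1.74 among FF libraries 1 to 8 alone. The 6 partners of citrate export include the ATP citrate lyase Acly and the malic enzyme Me1. Of these 6, 0 rose and 4 fell in BKO mice, and 0 rose and 5 fell in FF mice. That is 66.7% and 83.3% of the list, beside 27.5% and 37.5% of all genes. On the log2(FPKM + 1) scale Acly had a difference of -4.02 in BKO and -2.72 in FF mice, and Me1 of -2.22 and -2.15.

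Other organic acid carriers were split. The dicarboxylate carrier Slc25a10 was at 2.26, 2.22 and 3.30 FPKM in fasted BKO mice, against 18.96, 6.54 and 7.65 FPKM in fed BKO mice. In FF mice it was at 2.56, 2.95 and 3.04 FPKM when fasted and at 7.17, 4.87 and 9.95 FPKM when fed. It fell in both genotypes with no overlap of libraries (log2 difference -1.62, adjusted p = 8.25e-05 in BKO; -1.07, adjusted p = 0.00294 in FF). The oxoglutarate carrier Slc25a11 fell by 0.33 in FF mice (adjusted p = 0.0151), a call lost among libraries 1 to 8 alone and without FF fasted replicate 2 (adjusted p = 0.0794). In contrast Slc25a30, a close relative of the uncoupling proteins, rose. It was at 7.93, 8.55 and 5.53 FPKM in fasted BKO mice, against 4.72, 3.53 and 3.93 FPKM in fed BKO mice. In FF mice it was at 8.47, 7.30 and 13.5 FPKM when fasted and at 4.25, 3.96 and 3.01 FPKM when fed. Its log2 differences were 0.71 in BKO (SE 0.17, adjusted p = 0.00385) and 1.15 in FF mice (SE 0.17, adjusted p = 2.16e-05).

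Slc25a34, whose substrate is not established, rose the most in fasting. It lies on the minus strand at chr4:141618824-141623821 (ENSMUSG00000040740). It was at 24.7, 36.1 and 47.0 FPKM in fasted BKO mice, against 10.3, 9.91 and 10.3 FPKM in fed BKO mice. It was at 16.4, 34.5 and 25.8 FPKM in fasted FF mice, against 5.08, 5.50 and 11.2 FPKM in fed FF mice. The fasted and fed libraries did not overlap in either genotype, and the highest fed FF library is replicate 3, which carries a number above 8. The log2 difference was 1.68 in BKO (SE 0.25, adjusted p = 3.27e-05) and 1.70 in FF mice (SE 0.25, adjusted p = 1.81e-05). Its relative Slc25a35 went the other way, at 52.1, 40.9 and 53.4 FPKM in fasted BKO mice against 124, 101 and 112 FPKM in fed BKO mice, and at 65.8, 41.7 and 47.0 FPKM in fasted FF mice against 111, 114 and 105 FPKM in fed FF mice. Slc25a35 fell by 1.19 in BKO and 1.10 in FF mice (adjusted p = 2.55e-07 and 4.69e-07).

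Among the carriers of cofactors, Slc25a26, the carrier of S-adenosylmethionine, fell by 0.36 in BKO and 0.61 in FF mice. Slc25a16 rose by 0.62 and Slc25a51, the NAD carrier, by 0.35 in FF mice, while in BKO mice neither passed the test. The coenzyme A carrier Slc25a42 fell by 0.65 in FF mice (adjusted p = 0.0301), with fasted libraries at 56.8, 109 and 43.7 FPKM that overlapped the fed libraries at 108, 99.6 and 100.5 FPKM. Leaving out fasted replicate 1 or 3 or any fed FF library ended that call (adjusted p from 0.0554 to 0.224, with -0.38 without fasted replicate 3). Without fasted replicate 2 the log2 difference was -1.03, and in BKO mice Slc25a42 did not pass.

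The choline carrier Slc25a48 fell in both genotypes. It was at 3.24, 4.30 and 3.13 FPKM in fasted BKO mice against 7.11, 9.47 and 10.6 FPKM in fed BKO mice, and at 4.95, 4.22 and 3.10 FPKM in fasted FF mice against 10.4, 9.33 and 14.2 FPKM in fed FF mice. The log2 difference was -1.14 in BKO (adjusted p = 3.30e-05) and -1.27 in FF mice (adjusted p = 5.62e-06). Among amino acid carriers, Slc25a15 (ornithine) fell by 0.40 in BKO and 0.35 in FF mice, and the FF call was lost among libraries 1 to 8 alone. It was also lost without FF fasted replicate 3 (-0.19, adjusted p = 0.172), and the BKO call without BKO fasted replicate 1 (0.0561). Slc25a44, a carrier of branched-chain amino acids, fell by 0.45 in BKO mice (adjusted p = 0.00584), where it was at 33.0, 35.7 and 37.1 FPKM when fasted and 50.2, 46.1 and 48.8 FPKM when fed. In FF mice Slc25a44 was at 46.6, 37.7 and 49.4 FPKM when fasted and 47.5, 43.4 and 53.9 FPKM when fed, which overlapped. The glycine carrier Slc25a38 fell by 0.39 in BKO mice, a call lost without BKO fed replicate 3 or fasted replicate 1 (adjusted p = 0.0526 and 0.0613). The glutamate carrier Slc25a22 rose by 0.54 in FF mice, a call lost without FF fed replicate 1 or 2 or fasted replicate 3 (0.0643, 0.113 and 0.0799). The test of the difference between the genotypes is given below.

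The ADP/ATP carrier Slc25a5 and the phosphate carrier Slc25a3, which feed ATP synthase, both fell in fasting. Slc25a5 fell by 0.38 in BKO mice (357 ± 14.8 FPKM fasted, 463 ± 12.8 FPKM fed, SD, n = 3 each) and by 0.45 in FF mice (351 ± 28.4 FPKM fasted, 479 ± 21.5 FPKM fed, SD, n = 3 each). Slc25a3 fell by 0.26 in BKO mice (209, 229 and 243 FPKM fasted, 288, 265 and 262 FPKM fed) and by 0.60 in FF mice (195, 172 and 173 FPKM fasted, 260 to 288 FPKM fed). The BKO call of Slc25a3 was lost without BKO fed or fasted replicate 1 (adjusted p = 0.0710 and 0.0808). Slc25a4 did not pass the test in either genotype. The iron carrier Slc25a28 (mitoferrin 2) rose by 0.48 in both genotypes (adjusted p = 0.00624 in BKO, 0.00502 in FF), whereas its erythroid relative Slc25a37 did not pass. The acylcarnitine carrier Slc25a20 rose by 0.30 in BKO mice (adjusted p = 0.00573), and in FF mice its fasted libraries, at 307, 271 and 251 FPKM, overlapped the fed libraries, at 290.3, 293 and 295 FPKM. Slc25a27, an uncoupling protein relative below 2 FPKM, rose by 0.42 in BKO mice, a call lost without BKO fed replicate 1 or 3 or fasted replicate 1 (adjusted p = 0.0892, 0.0570 and 0.124). The liver-enriched Slc25a47, at 0.494 to 2.48 FPKM and at 1 FPKM or more in only 16 libraries, rose by 0.45 in FF mice. The pyrimidine nucleotide carrier Slc25a33 rose by 1.02 in FF mice (adjusted p = 3.33e-04).

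**Figure D2:**
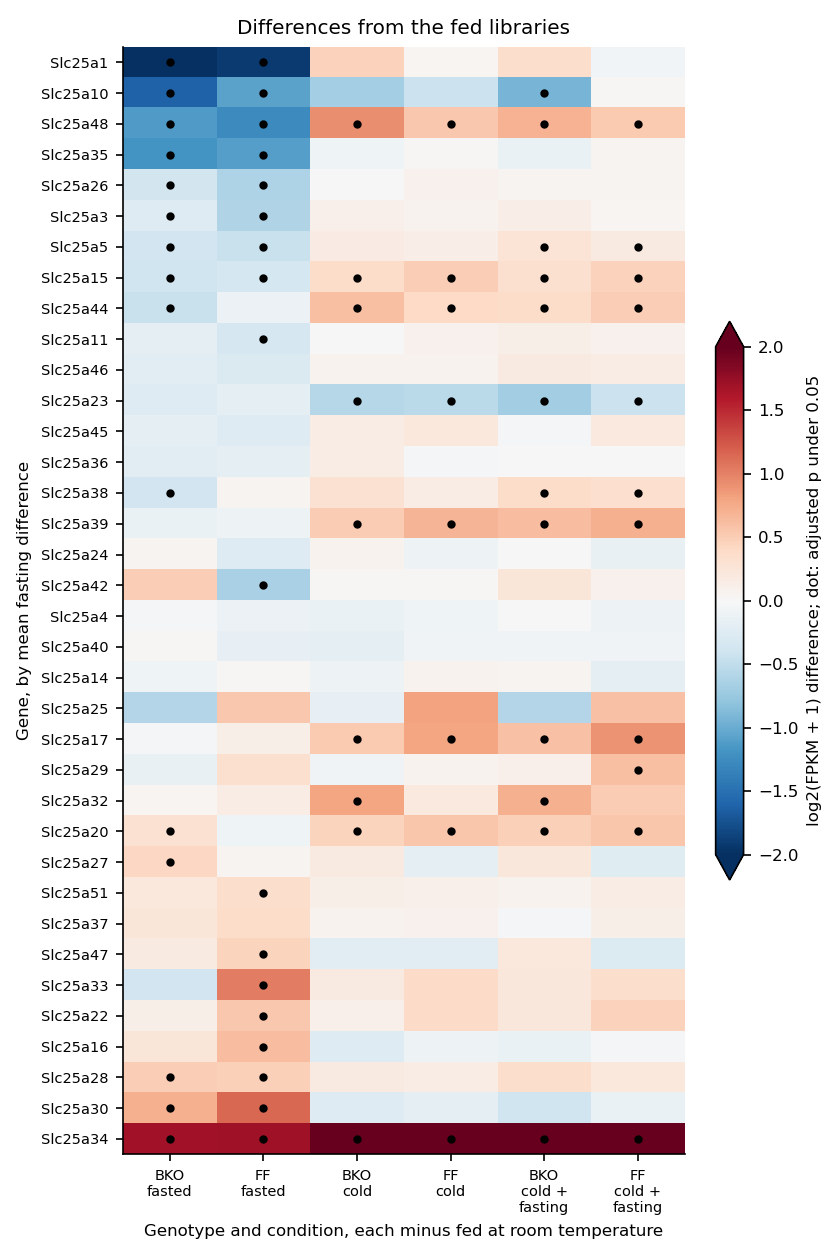
Log2(FPKM + 1) difference from the fed libraries of the same genotype, for 36 carriers (rows, ordered by the mean fasting difference) in 3 conditions, BKO left of FF; dots mark an adjusted p under 0.05, and colours saturate at 2 in either direction. Slc25a1 is at the top with -2.02 and -1.92 in fasting, and Slc25a34 at the bottom rose in all 6 comparisons, which share the 3 fed libraries of each genotype.

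The cold challenge mostly raised the carriers that changed. In BKO mice 8 members rose and 1 fell relative to fed mice, where 16.2% of all genes tested were called (9.71% higher, 6.49% lower). In FF mice 7 rose and 1 fell, where 23.6% were called (13.3% higher, 10.3% lower). These are 24.3% and 21.6% of the members, in FF mice a share near the background. All 7 that rose in FF mice also rose in BKO mice, and Slc25a23 fell in both. No share of all genes called in both genotypes is given beside these counts.

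Slc25a34 rose the most in the cold too. It was at 39.5, 43.5, 53.4 and 43.9 FPKM in cold BKO mice and at 60.9, 65.9, 61.9 and 51.0 FPKM in cold FF mice, beside the fed values above. No cold library overlapped a fed one. The log2 difference was 2.04 in BKO (SE 0.24, adjusted p = 3.97e-06) and 2.95 in FF mice (SE 0.24, adjusted p = 1.58e-08). The FF value was 3.26 among libraries 1 to 8 and 2.34 among libraries 15 to 32, with 1 library on each side in the second case. The difference of the cold responses between genotypes did not pass for Slc25a34 or any other member (limma, 0 of 37, with 3 at an unadjusted p under 0.05; 0.00787% of all genes were called).

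The acylcarnitine carrier Slc25a20, which moves fatty acyl units into the matrix for oxidation, lies on chromosome 9 (chr9:108662088-108684641, plus strand, ENSMUSG00000032602). It was at 427, 429, 419 and 448 FPKM in cold BKO mice, against 300.2, 322 and 323 FPKM in fed BKO mice. It was at 438, 453, 401 and 436 FPKM in cold FF mice, against 290.3, 293 and 295 FPKM in fed FF mice. The lowest cold library was above the highest fed library in both genotypes. Its log2 differences were 0.45 in BKO (adjusted p = 0.000184) and 0.56 in FF mice (adjusted p = 1.06e-05). Of its 5 partners in the carnitine shuttle, 1 rose in BKO and 2 in FF mice (20% and 40% of the list, beside 16.2% and 23.6% of all genes), and the inner membrane enzyme Cpt2 rose by 0.50 and 0.69.

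Slc25a39, which imports glutathione into the matrix, was at 367, 336, 384 and 358 FPKM in cold BKO mice and 357, 338, 359 and 344 FPKM in cold FF mice. Fed BKO mice were at 252, 231 and 277 FPKM and fed FF mice at 194, 216 and 250.5 FPKM. It rose by 0.51 in BKO (adjusted p = 7.00e-04) and 0.67 in FF mice (adjusted p = 2.67e-05), and its relative Slc25a40 did not pass. Slc25a17, a peroxisomal carrier of coenzyme A and related cofactors, was at 112 ± 9.31 FPKM in cold BKO and 77.6 ± 4.98 FPKM in fed BKO mice (SD, n = 4 and 3), and at 106 ± 7.32 FPKM in cold FF and 61.0 ± 8.80 FPKM in fed FF mice. It rose by 0.52 and 0.79. The folate carrier Slc25a32 rose by 0.79 in BKO mice (adjusted p = 0.00894), a call lost without BKO fed replicate 3 (0.0799).

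Of the 6 carriers of amino acids and related compounds, 3 rose in the cold in each genotype. They were Slc25a44, Slc25a48 and Slc25a15 in both, while Slc25a22, Slc25a29 and Slc25a38 did not pass. Of all genes tested, 9.71% rose in BKO and 13.3% in FF mice. A group of 6 is small, and the group as such was not tested. Slc25a44 was at 72.1, 81.0, 68.7 and 75.1 FPKM in cold BKO mice and at 67.8, 59.5, 64.9 and 64.0 FPKM in cold FF mice, above every fed library of the same genotype. It rose by 0.61 in BKO (adjusted p = 4.79e-04) and 0.40 in FF mice (adjusted p = 0.00923), the FF call being lost without FF fed replicate 2 (0.0710). Among 7 genes of mitochondrial branched-chain amino acid oxidation, 2 rose in BKO (Bckdha and Bckdhb, by 0.34 and 0.43) and 3 in FF mice. That is 28.6% and 42.9% of the list, beside 16.2% and 23.6% of all genes. Slc25a48 was at 20.4, 16.2, 17.2 and 18.6 FPKM in cold BKO mice and 16.4, 14.6, 15.2 and 20.6 FPKM in cold FF mice. It rose by 0.93 in BKO (adjusted p = 3.18e-04) and 0.53 in FF mice (adjusted p = 0.0184), a call of 0.70 among FF libraries 1 to 8 and 0.20, with no call, among libraries 15 to 32. It was lost as well without FF fed replicate 1 or 2 or cold replicate 4 (adjusted p = 0.0814, 0.124 and 0.0667). Slc25a15 rose by 0.37 in BKO and 0.49 in FF mice, and the BKO call was lost without BKO fed replicate 1 or cold replicate 4 (0.0524 and 0.0563). The FF call of Slc25a15 was lost among FF libraries 1 to 8 alone.

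Slc25a23, a calcium-regulated exchanger of ATP-magnesium for phosphate, was the member that fell. It was at 38.2, 44.2, 37.7 and 30.1 FPKM in cold BKO mice and 37.1, 41.2, 37.8 and 37.1 FPKM in cold FF mice, against 54.2, 51.8 and 62.3 FPKM in fed BKO and 57.0, 57.0 and 54.7 FPKM in fed FF mice. It fell by 0.58 in BKO (adjusted p = 0.00150) and 0.54 in FF mice (adjusted p = 0.00180). Its relatives did not pass, and Slc25a25 in particular spread from 1.20 to 7.94 FPKM in the fed libraries. Slc25a1, so low in fasting, was at 672 ± 47.3 FPKM in cold BKO and 501 ± 131 FPKM in fed BKO mice (SD, n = 4 and 3), and at 664 ± 25.6 FPKM in cold FF and 662 ± 178 FPKM in fed FF mice, and did not pass in either genotype.

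**Figure D3:**
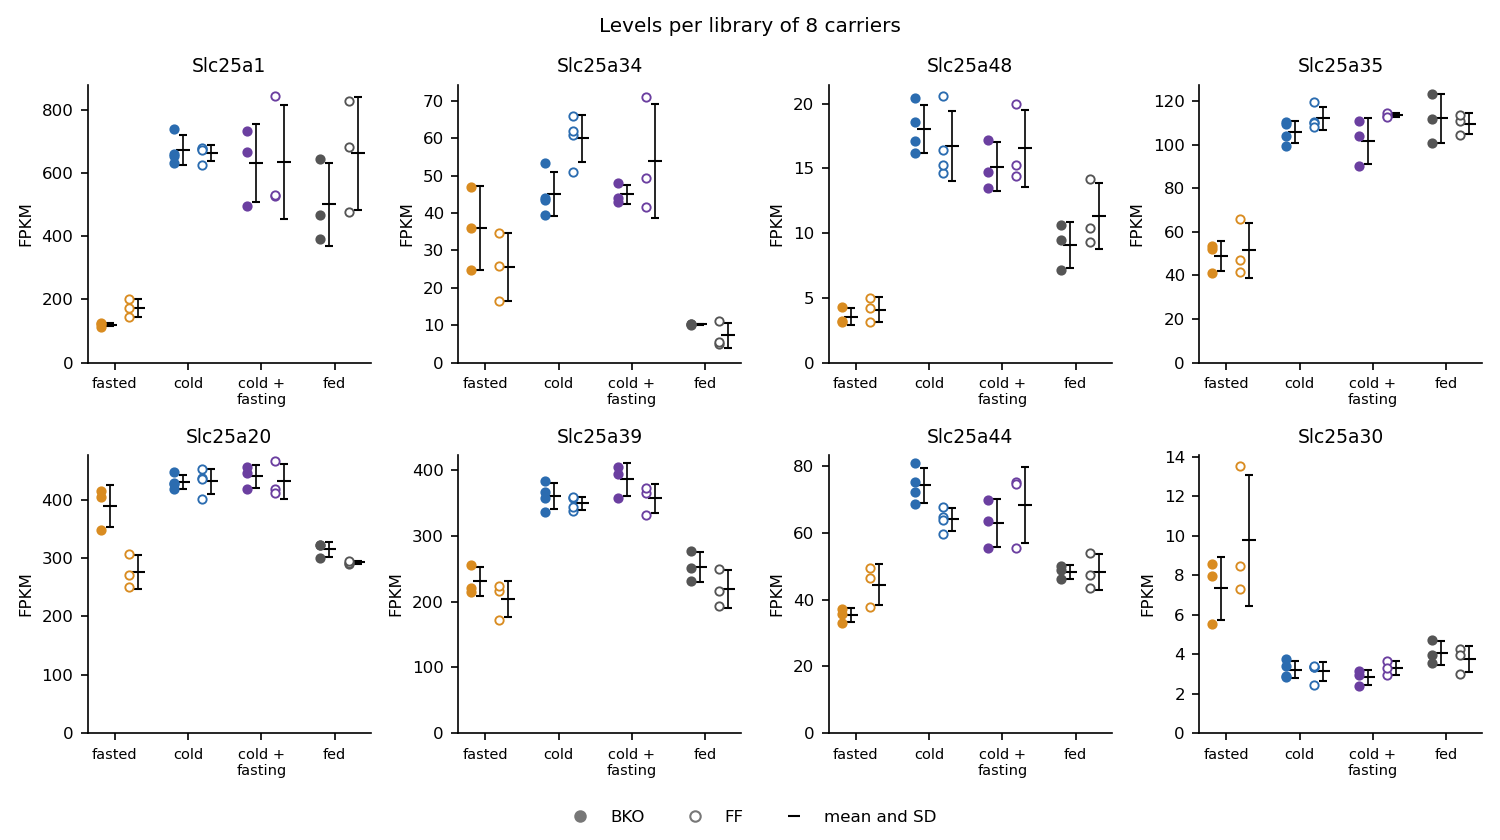
FPKM in every library for 8 carriers, by condition, with BKO (filled) left of FF (open) and the mean and SD beside each group; axes start at 0. Slc25a1 is lowest in fasted mice (114 to 200.2 FPKM), Slc25a34 is lowest in fed mice (5.08 to 11.2 FPKM), and Slc25a20 and Slc25a39 are highest in cold and in cold with fasting.

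In cold with fasting, 10 members rose and 2 fell in BKO mice relative to fed mice, where 19% of all genes tested were called (10% higher, 8.93% lower). In FF mice 10 rose and 1 fell, where 20.5% were called (11.6% higher, 8.93% lower). These comparisons share the fed libraries with those above. Of the members, 9 rose and 1 fell in both genotypes, again without the share of all genes called in both. Slc25a34 was at 43.0, 44.0 and 48.0 FPKM in BKO and 71.0, 49.4 and 41.5 FPKM in FF mice, and rose by 2.04 in BKO and 2.77 in FF mice (2.14 among FF libraries 15 to 32). Slc25a17 rose by 0.59 and 0.90, Slc25a39 by 0.61 and 0.70, Slc25a20 by 0.48 and 0.56, Slc25a48 by 0.69 and 0.52, and Slc25a44 by 0.37 and 0.49 in BKO and FF mice. Slc25a15, Slc25a38 and Slc25a5 rose by 0.27 to 0.37 in BKO and by 0.18 to 0.47 in FF mice. Slc25a23 fell by 0.70 and 0.43. Slc25a32 rose by 0.71 in BKO mice, and Slc25a29, a carrier of basic amino acids below 4 FPKM, by 0.60 in FF mice. Slc25a10 fell by 0.93 in BKO mice.

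Several of these calls were lost when 1 library was left out. In BKO mice the call of Slc25a10 was lost without fed replicate 1 (-0.49, adjusted p = 0.134) or cold with fasting replicate 2 (0.0506), and that of Slc25a48 without fed replicate 1 (0.0508). The call of Slc25a32 was lost without fed replicate 3 or cold with fasting replicate 1 or 2 (0.0738 to 0.135), and that of Slc25a44 without fed replicate 2 or 3 or cold with fasting replicate 1 or 2 (0.0549 to 0.112). That of Slc25a38 was lost without fed replicate 1 or 2 or cold with fasting replicate 1 or 3 (0.0581 to 0.0897). Slc25a15 lost its call without any fed BKO library, cold with fasting replicate 1 or 2, or 1 of 5 libraries outside the comparison (0.0501 to 0.140). The outside libraries, here and below, enter through the shared estimate of the spread.

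In FF mice the call of Slc25a29 was lost without fed replicate 1 or cold with fasting replicate 1 or 3 (0.0637 to 0.141), and that of Slc25a48 without fed replicate 1 or 2 or cold with fasting replicate 3 (0.123 to 0.176). That of Slc25a23 was lost without fed replicate 1 or 2 or cold with fasting replicate 1 or 2 (0.0589 to 0.0829). Slc25a38 lost its call without fed replicate 3 (0.18, adjusted p = 0.249), cold with fasting replicate 1 or 3 (0.111 and 0.139), or 1 of 7 libraries outside the comparison. Slc25a5 lost its call without fed replicate 1 or 2, any of the cold with fasting FF libraries, or 1 of 12 outside libraries (0.0506 to 0.198). The calls of Slc25a34, Slc25a17, Slc25a39 and Slc25a20 were kept without each library in turn in both genotypes, as was that of Slc25a23 in BKO mice. Among FF libraries 15 to 32 alone 4 members were called, and with the number range as a term 4. Without FF fed replicate 1, or cold with fasting replicate 1 or 3, 7 were called in FF mice.

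No member passed the test for adding a fast to the cold. The comparison of cold with fasting against cold, averaged over both genotypes, called 0 of 37 members in limma, with 2 at an unadjusted p under 0.05, and 0.0157% of all genes. Slc25a1 was at 666, 495 and 735 FPKM in BKO and 529, 531 and 844 FPKM in FF mice in cold with fasting, against 741, 654, 661 and 633 FPKM in cold BKO and 675, 626, 681 and 674 FPKM in cold FF mice. These libraries overlapped. The log2 difference was -0.10 (SE 0.13), beside -1.97 (SE 0.14) for fasting at room temperature.

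The fasting difference in the cold minus that at room temperature was tested directly, on libraries of all 8 groups, in a comparison added after the others had been seen. It passed for 16 of 37 members, where 33.4% of all genes tested were called (17% higher, 16.5% lower). A positive value means that the fasted level was higher, relative to its own fed or cold level, in the cold. For 11 members the value was positive, and each of these is among those that fell in fasting at room temperature in at least 1 genotype. For 5 members it was negative, each among those that rose there in at least 1 genotype. The fasted and fed libraries enter both tests. The values were 1.87 for Slc25a1 (SE 0.19, adjusted p = 2.48e-07), 1.45 for Slc25a10, 1.13 for Slc25a35, 1.07 for Slc25a48, 0.50 for Slc25a5, 0.49 for Slc25a26 and 0.43 for Slc25a3. Slc25a34 had the most negative value (-1.78, SE 0.24, adjusted p = 9.98e-06), followed by Slc25a30 (-0.97), Slc25a28 (-0.37), Slc25a16 (-0.34) and Slc25a51 (-0.28). The call of Slc25a28 was lost without BKO fasted replicate 1 or FF fasted replicate 3 (adjusted p = 0.0504 and 0.0501), and that of Slc25a38 (0.29) without any 1 of 17 libraries (0.0506 to 0.0899). All 6 citrate export partners had a positive value in this test and 5 passed, with Acly at 3.20.

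**Figure D4:**
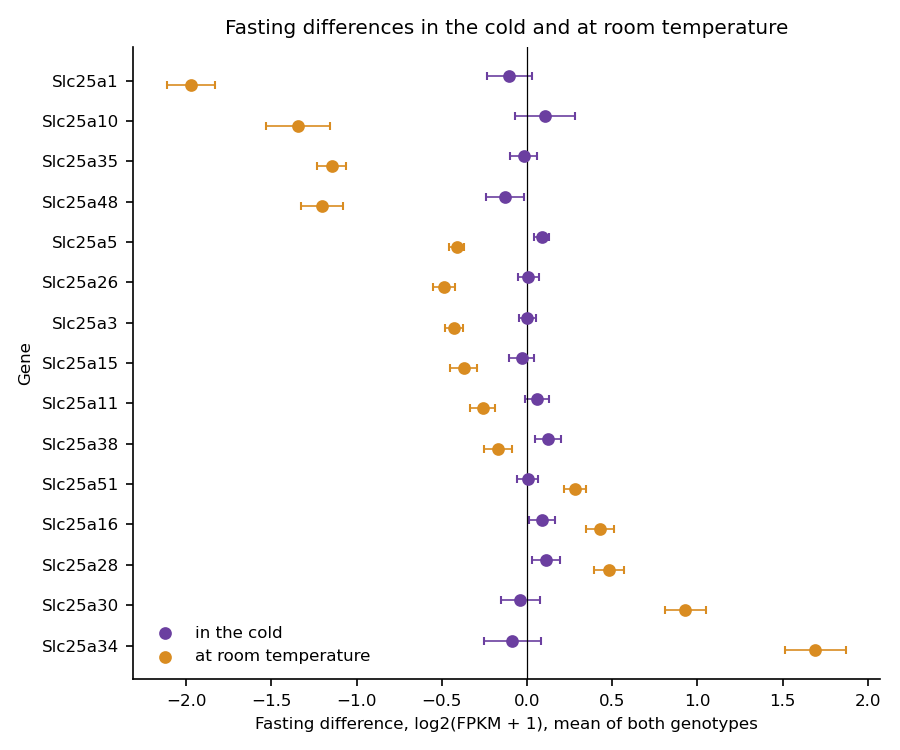
Fasting difference in log2(FPKM + 1), averaged over both genotypes, for 15 carriers whose difference between temperatures passed the test: cold with fasting minus cold (purple) and fasted minus fed at room temperature (orange), with standard errors. In the cold all 15 lie between -0.13 and 0.12, while at room temperature they run from -1.97 for Slc25a1 to 1.69 for Slc25a34.

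Between the genotypes, members were called in fasted mice, where genotype cannot be told apart from the library number range. There 5 members were higher and 3 lower in BKO than in FF mice, where 8.67% of all genes tested were called (4.53% higher, 4.15% lower). In fed mice 0 of 37 were called in limma (4 at an unadjusted p under 0.05; 0.22% of all genes), in cold 0 (2; 0.401%) and in cold with fasting 0 (3; 0.236%). Averaged over the 4 conditions, 1 member was higher and 2 lower, where 2.97% of all genes were called (1.26% higher, 1.71% lower). Without BKO fasted replicate 3 the count in fasted mice was 4, and without FF fasted replicate 3 it was 5.

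Slc25a20 was at 349, 415 and 405 FPKM in fasted BKO mice, against 307, 271 and 251 FPKM in fasted FF mice, with no overlap (log2 difference 0.49, SE 0.08, adjusted p = 3.20e-04). Slc25a33 was at 21.2, 14.5 and 13.8 FPKM in fasted BKO mice, against 29.1, 33.9 and 64.2 FPKM in fasted FF mice, with no overlap (log2 difference -1.25, SE 0.20, adjusted p = 3.48e-04). The calls of both genes were kept with the number range as a term (adjusted p = 0.0478 and 0.0438) and lost when the 6 fasted libraries alone were fitted (0.118 and 0.124). Only fed and cold FF libraries fall in both number ranges, so this term cannot separate number range from genotype within fasted mice. The coenzyme A carrier Slc25a42 was at 108, 140.1 and 171 FPKM in fasted BKO mice, against 56.8, 109 and 43.7 FPKM in fasted FF mice, which overlap (log2 difference 1.07, SE 0.23, adjusted p = 0.00544), and that call was lost without BKO or FF fasted replicate 3 (0.0505 and 0.0569).

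The other fasted differences were smaller. Slc25a3 was higher by 0.33 and Slc25a26 by 0.32, each a member that had fallen in fasting in both genotypes. These calls were lost without BKO fasted replicate 3 (adjusted p = 0.0632 and 0.127), and that of Slc25a26 also without FF fasted replicate 2 or 3 (0.0667 and 0.176) or BKO fasted replicate 2 (0.0797). Slc25a38, the glycine carrier, was at 5.92, 6.42 and 6.89 FPKM in BKO and 13.02, 9.06 and 10.4 FPKM in FF mice (log2 difference -0.66, adjusted p = 8.29e-04). Slc25a47 was lower by 0.59 in BKO mice, at 1.53, 0.789 and 1.32 FPKM against 2.48, 2.13 and 2.26 FPKM in FF mice. With the number range as a term the calls of Slc25a42, Slc25a3, Slc25a26, Slc25a38 and Slc25a47 were lost, and with the 6 libraries alone all 8 calls were. In the average of the conditions Slc25a20 was higher by 0.16, and Slc25a38 and Slc25a47 were lower by 0.28 and 0.26, and all 3 calls were lost with that term. The call of Slc25a20 in the average was also lost without BKO fasted replicate 3 or FF cold with fasting replicate 2 (0.0547 and 0.0526).

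Whether the fasting response itself differed between genotypes was tested in the same fit. Slc25a33 passed, at -1.41 (SE 0.28, adjusted p = 0.0194), where 0.716% of all genes were called (0.417% lower). Its fasted minus fed difference was -0.39 in BKO mice, which did not pass, and 1.02 in FF mice. The call was lost without BKO fed replicate 2, FF fed replicate 1, or BKO fasted replicate 2 or 3 (adjusted p = 0.0545 to 0.0799). For the remaining 36 members the difference did not pass, including those called in fasting in 1 genotype and not in the other. The difference of the responses to cold with fasting called 0 members in limma, with 4 at an unadjusted p under 0.05 (0.00787% of all genes).

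**Figure D5:**
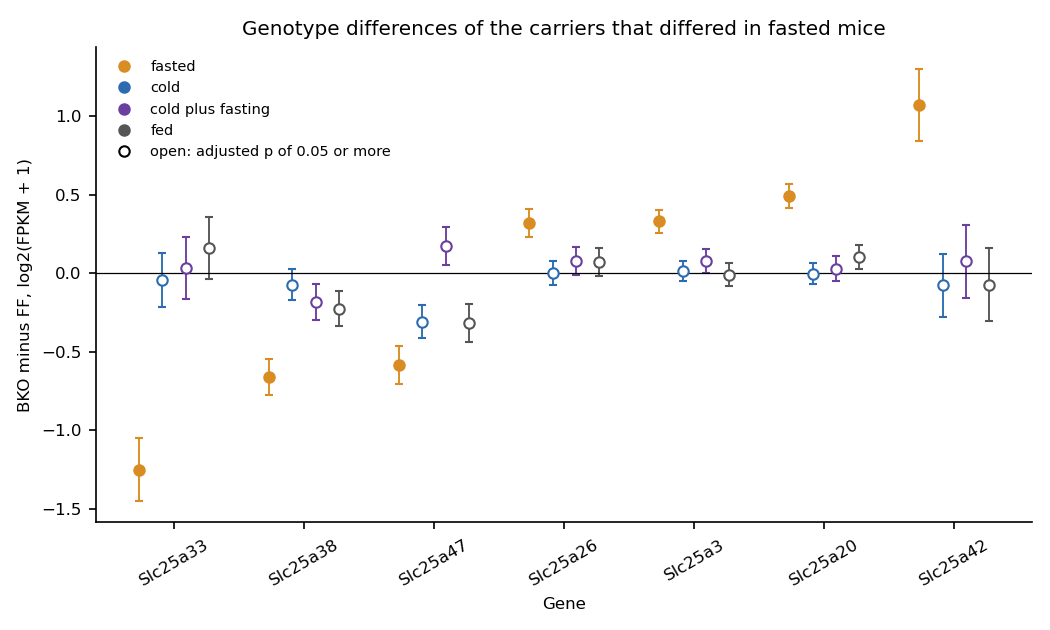
BKO minus FF difference in log2(FPKM + 1), with standard errors, of 7 carriers called in fasted mice, in the 4 conditions; filled points passed the test. Fasted values run from -1.25 for Slc25a33 to 1.07 for Slc25a42, and every point of the other 3 conditions is open.

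Genes that work with the carriers were taken from lists. The machinery that imports and inserts carriers into the inner membrane (13 genes) had 0 rises and 4 falls in fasted BKO mice and 1 rise and 7 falls in fasted FF mice, which is 30.8% and 61.5% of the list beside 27.5% and 37.5% of all genes. Among those that fell were the insertion channel Timm22 (-0.40 and -0.70) and Agk (-0.54 and -0.96), a subunit of its complex. In cold 2 of them rose in BKO and 5 in FF mice, Timm22 by 0.42 and 0.63 and the small chaperone Timm8b by 0.58 and 0.67. That is 15.4% of the list in BKO mice, near the 16.2% of all genes, and 38.5% in FF mice beside 23.6%. In fasted mice 4 of the 13 were higher and 0 lower in BKO than in FF mice (30.8%, beside 8.67% of all genes). Among 77 nuclear genes of the respiratory chain and ATP synthase, 0 rose and 2 fell in fasted BKO mice, and 0 rose and 18 fell in fasted FF mice, which at 2.597% and 23.4% lies below the shares of all genes. In cold 9 rose and 2 fell in each genotype, 14.3% of the list and also below those shares. Their median log2 difference in fasting was -0.01 in BKO and -0.16 in FF mice, beside -0.15 and -0.12 for the carriers.

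The malate-aspartate and glycerol phosphate shuttles (6 genes) had 3 falls in fasted BKO and 4 in fasted FF mice. That is 50% and 66.7% of the list, beside 27.5% and 37.5% of all genes. In the cold Got1, the cytosolic aspartate aminotransferase, rose by 1.80 in BKO and 1.73 in FF mice. Of 5 tested enzymes of glutamate, proline and ornithine, 0 were higher and 4 lower in fasted BKO than in fasted FF mice (80.0%, beside 8.67% of all genes), with Prodh at -1.75 and Oat at -0.95, while their carriers Slc25a22 and Slc25a15 were not called. Of 11 genes of iron, heme and glycine use, Alas1, the first enzyme of heme synthesis, fell in fasting by 1.42 in BKO and 1.89 in FF mice. Alas2, its erythroid form, rose in cold by 0.84 in BKO and 1.19 in FF mice, beside the erythroid markers given above. The part of blood cells in the cold differences of Slc25a39 was not tested, and Slc25a37, the erythroid iron carrier, was at 4.18 ± 0.33 FPKM in cold BKO and 3.93 ± 0.52 FPKM in fed BKO mice, and at 3.83 ± 0.50 FPKM in cold FF and 3.54 ± 0.41 FPKM in fed FF mice.

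Among carrier relatives with other symbols, Ucp2 rose in fasting by 0.43 in BKO and 0.53 in FF mice, and the pyruvate carrier subunit Mpc2, which belongs to another protein family, fell by 0.40 and 0.51. In cold Mpc2 rose by 0.65 in BKO and 0.59 in FF mice. Ucp3 rose in cold by 0.84 in FF mice, and Ucp1 rose in cold with fasting by 0.86 in BKO and 1.28 in FF mice.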

How the data were processed

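RNA sequencing values of 26 mouse brown adipose tissue libraries in 8 groups were used. The deposited table gives FPKM per gene, which the authors made on the mouse build mm10; the submitters' processing notes name STAR, Cufflinks and Cuffdiff, without versions. Counts were not used, so depth is unknown. The sum of FPKM per library was 388107 to 501068.

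Values were analysed as log2(FPKM + 1), which understates the change of low genes. Genes at 1 FPKM or more in 3 libraries were tested. Exact zeros in 33 genes whose other values were all at least 100 FPKM were treated as failed estimates and removed; no member had a zero. Group means were fitted with limma 3.58.1 in R 4.3.3 with an intensity trend, tests were two-sided, and p-values were adjusted by Benjamini-Hochberg within each comparison. They set a difference of group means against the spread between libraries, which may be partly technical. The fit was tested on simulated data. No 2 libraries held identical values.

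Members, lists and tests were chosen with earlier results of these data known. Up to 12 called members per comparison, 18 carriers fixed by name and the 6 most abundant were named, except 1 member that is counted but not reported here, and of each list up to 3 genes with the smallest adjusted p. Gene positions are GENCODE M21 on GRCm38, with all 47 IDs matched without their version (37 also with it). Alternatives were a pseudocount of 0.1, no filter, quantile normalization, zeros kept, only the libraries compared, the library number range as a term or alone, and each library left out.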

Additional observations from a re-analysis of the deposited data

Results flagged for a closer look

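Within groups of 4 libraries, 6 of the 74 groups of members tested had a library set apart from the other 3 by more than Dixon's critical value, and chance gives about 1 in 20. All 6 were in cold FF mice. Replicate 2 was low for Slc25a1 (625.7 FPKM, others 673.8 to 680.5) and high for Slc25a45 (2.638 FPKM, others 1.795 to 1.922). Replicate 3 was low for Slc25a30 (2.412 FPKM, others 3.333 to 3.385) and Slc25a40 (2.184 FPKM, others 2.772 to 2.868). Replicate 1, the cold FF library with a number above 8, was low for Slc25a3 (279.7 FPKM, others 288.7 to 290.4) and high for Slc25a16 (33.09 FPKM, others 26.47 to 27.48).

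The fasting response of Slc25a33 differed between genotypes, by -1.41 for BKO minus FF on the log2 scale (limma adjusted p = 0.0194). It was at 21.2, 14.5 and 13.8 FPKM in fasted BKO and 29.1, 33.9 and 64.2 FPKM in fasted FF mice. All fasted FF libraries carry numbers from 1 to 8 and all fasted BKO libraries higher ones, so in these fasted levels number range and genotype cannot be told apart. The call of the difference of fasting responses was kept with the number range as a term. It was lost with only the libraries compared and without any 1 of 4 libraries.

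The fasting response in the cold minus that at room temperature passed for 16 members. Among them it was 1.868 for Slc25a1, 1.449 for Slc25a10, 1.125 for Slc25a35, 1.074 for Slc25a48, 0.4998 for Slc25a5, 0.4934 for Slc25a26, 0.429 for Slc25a3, 0.3409 for Slc25a15, 0.3187 for Slc25a11 and 0.294 for Slc25a38. It was -1.779 for Slc25a34, -0.9687 for Slc25a30, -0.3699 for Slc25a28, -0.3398 for Slc25a16 and -0.2765 for Slc25a51. With the library number range as a term the calls of Slc25a15 and Slc25a28 were lost (adjusted p = 0.0804 and 0.0737) and the other 14 were kept.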

How the results depend on the processing

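Over all comparisons 103 member calls were made, of which 55 were kept under every alternative run, 31 were lost without some 1 library and 18 with the library number range as a term, and 0 changed direction. With only the libraries compared, the number of members called was 0 for BKO against FF in fasted mice, 5 and 6 for cold with fasting against fed in BKO and FF mice, and 0 for the difference of fasting responses between genotypes. With the number range as a term it was 2 for BKO against FF in fasted mice, 0 in the average of the conditions and 4 for cold with fasting in FF mice. Among libraries 15 to 32 alone it was 1 for cold and 4 for cold with fasting in FF mice. Leaving out each library in turn gave 4 to 8 members for BKO against FF in fasted mice, 2 to 4 in the average, 12 to 17 and 17 to 20 for fasting in BKO and FF mice, 8 to 11 and 6 to 10 for cold, 8 to 13 and 7 to 12 for cold with fasting, and 0 to 3 for the difference of fasting responses. It gave 14 to 17 for the difference of fasting responses between temperatures. Counts of members under the remaining alternatives stayed within 1.5 times. Over all genes tested, 8.67% were called for BKO against FF in fasted mice, against 0.598% with only the libraries compared and 1.13% with the number range as a term. The cause of these changes was not tested. Fits of only the libraries compared also hold fewer libraries. No paired analysis was possible because the labels give no replicate numbers. Depth is unknown, so the precision of low members cannot be given.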
